A study of Mus musculus with 6 samples.

Results

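The 9 genes described here are the high mobility group genes Hmgb1, Hmgb2, Hmgb3, Hmga1, Hmgn1, Hmgn2 and Hmgn3, the prothymosin alpha gene Ptma, and Set, out of 12331 gene rows. All 9 were found in the deposited table. They were chosen by gene name, with measured levels and method differences of these same libraries already known. Ptma had then been seen to stand apart between methods, so its difference is given as a description with no test. The 6 RNA-seq libraries came from the established mouse embryonic stem cell line E14tg2a, grown with the cytokine LIF. Per the labels' protocol, each library started from 10 pg of total RNA taken from cultured cells, an amount like that of a single cell, and its cDNA was amplified by 20 PCR cycles. In the 3 tagmentation libraries the cDNA was cut and tagged by hyperactive Tn5 transposase. In the 3 sonication libraries it was sheared by sound and ligated to adaptors. Both groups carried replicate numbers 1 to 3, called technical replicates in the labels, and the series asked how these ways of making a library compare. Values are RPKM: reads are divided by the length of the gene model and by the library's number of alignments. The labels do not give 1 account of the input: the sample descriptions name a lysate of single cells, while the protocol names 10 pg of purified total RNA, which is the reading used here. On that reading the RNA came from many cells, and more cells with a transcript and more transcript per cell cannot be told apart.

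High mobility group proteins are small, abundant proteins of chromatin. Those of the HMGB family bend DNA with paired HMG boxes and end in an acidic tail. HMGA proteins bind AT-rich DNA through AT-hook motifs, and HMGN proteins bind the nucleosome and counter its compaction by linker histone. Prothymosin alpha is a very acidic nuclear protein that binds linker histone H1. Set is a histone chaperone with an acidic tail and an inhibitor of protein phosphatase 2A.

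Acidic stretches are a feature shared by Ptma, Set and the Hmgb genes, and were not used to choose the genes. In the coding sequences of GENCODE M21 (mouse build GRCm38), codons for glutamate and aspartate made up 47.7% of 111 codons in Ptma. They made up 29.8% of 289 codons in Set. In Hmgb1, Hmgb2 and Hmgb3 they made up 26.0%, 23.3% and 22.0%, and in the other 4 genes from 14.0% in Hmga1 to 18.2% in Hmgn3. The longest unbroken acidic run had 30 codons in Hmgb1, 23 in Hmgb2, 20 in Hmgb3, 11 in Set and 8 in Ptma, against 2 to 4 in Hmga1 and the Hmgn genes. For those first 5 genes, the most acidic window of 30 codons is printed 5′ to 3′ on the coding strand, with acidic codons in capitals, to show how the tail of the Hmgb genes differs in length and how the acidic codons of Ptma are broken by other codons, mainly for glycine.
Hmgb1: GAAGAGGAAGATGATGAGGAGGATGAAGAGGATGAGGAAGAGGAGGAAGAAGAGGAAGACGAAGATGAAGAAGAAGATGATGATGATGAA
Hmgb2: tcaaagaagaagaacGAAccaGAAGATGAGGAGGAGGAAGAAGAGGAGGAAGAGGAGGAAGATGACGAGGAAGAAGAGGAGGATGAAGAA
Hmgb3: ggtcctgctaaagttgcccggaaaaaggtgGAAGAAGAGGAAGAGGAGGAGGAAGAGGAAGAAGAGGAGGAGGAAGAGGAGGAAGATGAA
Ptma: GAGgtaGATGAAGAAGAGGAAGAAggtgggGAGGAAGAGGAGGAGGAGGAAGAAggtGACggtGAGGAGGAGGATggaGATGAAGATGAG
Set: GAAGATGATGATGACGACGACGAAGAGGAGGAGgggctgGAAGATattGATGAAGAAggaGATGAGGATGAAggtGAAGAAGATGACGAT
All codons of the Hmgb1 window were acidic, against 24 in Hmgb2, 20 in Hmgb3, 24 in Ptma and 25 in Set. Over aligned coding bases Hmgb1 was 75.4% identical to Hmgb2 and 74.7% to Hmgb3, and the Hmgn genes were 61.2% to 62.7% identical to each other.

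Libraries had 21007424, 34612028 and 34681566 alignments after tagmentation (numbers 1 to 3) and 30296557, 22002643 and 18852822 after sonication. All 6 markers of undifferentiated stem cells were in the table, with summed levels of 1271 to 2191 RPKM after tagmentation and 835 to 2258 RPKM after sonication. The lowest, Nanog, was listed at 0 in number 3 of both methods. Of 12 markers of other cells 7 were in the table, 5 of them under 1 RPKM in every library. Their sum was 9.80 to 86.3 RPKM after tagmentation and 7.37 to 64.7 RPKM after sonication. The highest of them was T, a gene of the primitive streak, with 83.2 RPKM after tagmentation and 61.3 RPKM after sonication in number 2. The part of such cells in the results was not tested. Deviations from the group means correlated by 0.934 to 0.969 across genes between libraries of the same number. Values were tested as log2(RPKM + 1) with limma over 6327 genes at 1 RPKM or more in at least 3 libraries, and 8 of the 9 genes passed this filter. Hmgn3 did not, with 1 RPKM or more in number 1 only. Whole reads could be recovered from the deposited values for 5 genes. These showed 30 to 364 reads per library for Hmgb1, 228 to 1089 for Hmgb2, 84 to 1656 for Hmgb3, 129 to 925 for Hmgn2 and 2202 to 10695 for Hmgn1. Since the reads carry no molecular identifiers and PCR copies are counted, these numbers speak of counting error only.

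By mean level the 9 genes stood between places 40 and 7043 of the 12331 rows. Ptma was by far the highest, with 1249, 1272 and 1438 RPKM in tagmentation libraries 1 to 3, against 620, 580 and 470 RPKM in sonication libraries 1 to 3. It stood at places 16, 33 and 25 of all 12331 genes after tagmentation, and at places 89, 95 and 94 after sonication. Hmgn1, Set and Hmga1 came next, with means over the 6 libraries of 196, 156 and 99.8 RPKM. Hmgn2, Hmgb3 and Hmgb2 followed with 13.2, 11.2 and 9.20 RPKM, and Hmgb1 and Hmgn3 were lowest with 2.80 and 1.96 RPKM. The order of Hmgn1 and Set, Set and Hmga1, Hmgn2 and Hmgb3, Hmgb3 and Hmgb2, and Hmgb1 and Hmgn3 changed between libraries, so these neighbours did not differ beyond their spread. Hmgb2 overlapped Hmgb1 over all libraries, but was above it within each of 6 libraries, by at least 2.57-fold. Reads of Hmgb1 could be split with its near-identical copies, described below, so its low place and this order are uncertain. Every library of Ptma lay above every library of Hmgn1, and every library of Hmga1 lay above every library of Hmgn2.

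**Figure D1:**
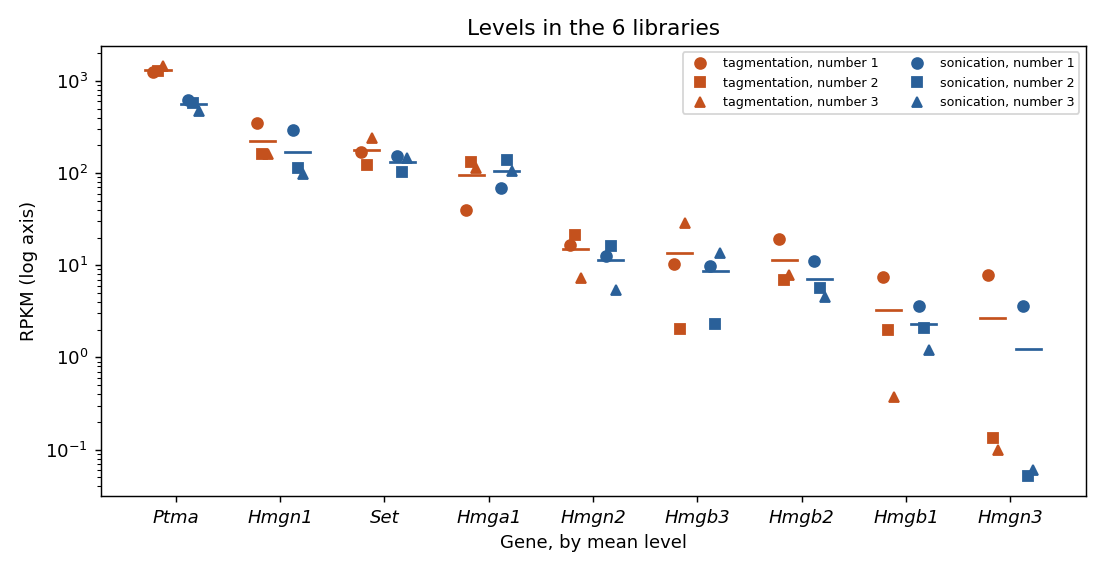
RPKM (log axis) of the 9 genes, ordered by mean level, in the 3 tagmentation libraries (orange, left) and the 3 sonication libraries (blue, right); symbols give the replicate number and bars the mean of each method. The methods do not overlap for Ptma, with 1249 to 1438 RPKM after tagmentation and 470 to 620 RPKM after sonication, and overlap for the other 8 genes.

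Ptma was 2.01-fold, 2.19-fold and 3.06-fold higher after tagmentation than after sonication in numbers 1, 2 and 3. Its mean was 1320 ± 103 RPKM after tagmentation and 557 ± 77.8 RPKM after sonication (SD, n = 3 each), with a mean log2 difference of 1.25 on the log2(RPKM + 1) scale. The tagmentation libraries lay above all sonication libraries without overlap, as they did in 1.88% of the genes tested. The difference between methods in Ptma was larger than the spread within them, which was 0.11 after tagmentation and 0.21 after sonication as an SD of log2 values. The median SD over all genes tested was 1.32 after tagmentation and 1.17 after sonication. Nearly all of those genes had lower levels than Ptma. Ptma had been seen to stand apart between methods beforehand, so these comparisons are descriptions only. Reads could be shared with near-copies, whose part was not tested. In GENCODE M21, 12 other genes matched its longest transcript over at least 150 bases at 85% identity or more, 11 of them pseudogenes, and none of the 12 was found as a row of the table.

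Set had 170, 124 and 241 RPKM in tagmentation libraries 1 to 3, against 153, 102 and 146 RPKM in sonication libraries 1 to 3. Its tagmentation library was the higher in each number, by 1.11-fold, 1.21-fold and 1.65-fold, while the groups overlapped. The mean log2 difference was 0.38 (SE 0.43), which did not pass limma's test (Benjamini-Hochberg adjusted p = 1.00). Set stood with Ptma as a gene of small spread, with an SD of log2 values of 0.48 after tagmentation and 0.32 after sonication. It matched 15 other annotated genes, of which 14 were pseudogenes and none was a row of the table.

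Among nucleosome-binding Hmgn genes, Hmgn1 was the highest, with 347, 162 and 161 RPKM in tagmentation libraries 1 to 3, against 294, 115 and 97.3 RPKM in sonication libraries 1 to 3. It was higher after tagmentation in each number, by 1.18-fold, 1.41-fold and 1.66-fold, and number 1 was far above the others in both methods. Hmgn2 had 16.4, 21.3 and 7.22 RPKM after tagmentation, against 12.5, 16.1 and 5.46 RPKM after sonication. Its ratio of tagmentation to sonication was 1.32 in each of numbers 1, 2 and 3 (1.317, 1.324 and 1.323), although its level differed by number and the groups overlapped. The mean log2 differences of 0.48 (SE 0.53) for Hmgn1 and 0.37 (SE 1.00) for Hmgn2 did not pass limma's test (adjusted p = 1.00 for both). Hmgn3, a family member made in splice forms, had 7.85 RPKM after tagmentation and 3.59 RPKM after sonication in number 1. In numbers 2 and 3 it had 0.132 and 0.0990 RPKM after tagmentation, against 0.0520 and 0.0607 RPKM after sonication. These low values lay near the level that 3 reads would give over its longest annotated transcript of 1391 bases, 0.0623 and 0.0622 RPKM after tagmentation and 0.0980 and 0.114 RPKM after sonication. A difference between methods in numbers 2 and 3 was therefore not detectable at these low levels.

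The Hmgb genes, which encode DNA-bending proteins, were low. Hmgb2, prominent in dividing cells, had 19.3, 6.90 and 7.84 RPKM in tagmentation libraries 1 to 3, against 11.0, 5.67 and 4.49 RPKM in sonication libraries 1 to 3. It was higher after tagmentation in each number, by 1.75-fold, 1.22-fold and 1.75-fold, and the groups overlapped. Hmgb3, the X-linked member of the family, had 10.3, 2.06 and 28.8 RPKM after tagmentation, against 9.71, 2.31 and 13.7 RPKM after sonication. Number 3 was the highest in both methods, and the methods differed mainly there, by 2.10-fold. Hmgb1 had 7.50, 2.00 and 0.375 RPKM after tagmentation, against 3.59, 2.11 and 1.22 RPKM after sonication. Number 1 was the highest and number 3 the lowest in both methods, but the ratio changed sides: the tagmentation to sonication ratio of Hmgb1 was 2.09 in number 1, 0.951 in number 2 and 0.308 in number 3. Number 3 rested on 30 reads after tagmentation and 53 after sonication. In limma's test the mean log2 differences were 0.56 (SE 1.10) for Hmgb2, 0.33 (SE 1.28) for Hmgb3 and 0.050 (SE 0.99) for Hmgb1, and none passed (adjusted p = 1.00 for each). The direction turned without tagmentation replicate 3 or sonication replicate 2 for Hmgb3 (-0.45 and -0.31), and without tagmentation replicate 1 or sonication replicate 3 for Hmgb1 (-0.64 and -0.21).

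Hmga1, the architectural AT-hook gene active in stem cells, had 40.0, 133 and 113 RPKM in tagmentation libraries 1 to 3, against 68.9, 139 and 105 RPKM in sonication libraries 1 to 3. Number 1 was the lowest in both methods, the reverse of Hmgn1 and Hmgb2. The tagmentation library was lower in number 1, at 0.581-fold, while the ratios of 0.960 and 1.07 in numbers 2 and 3 were near 1. The mean log2 difference of -0.24 (SE 0.57) did not pass limma's test (adjusted p = 1.00). It turned to 0.29 without tagmentation replicate 1.

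**Figure D2:**
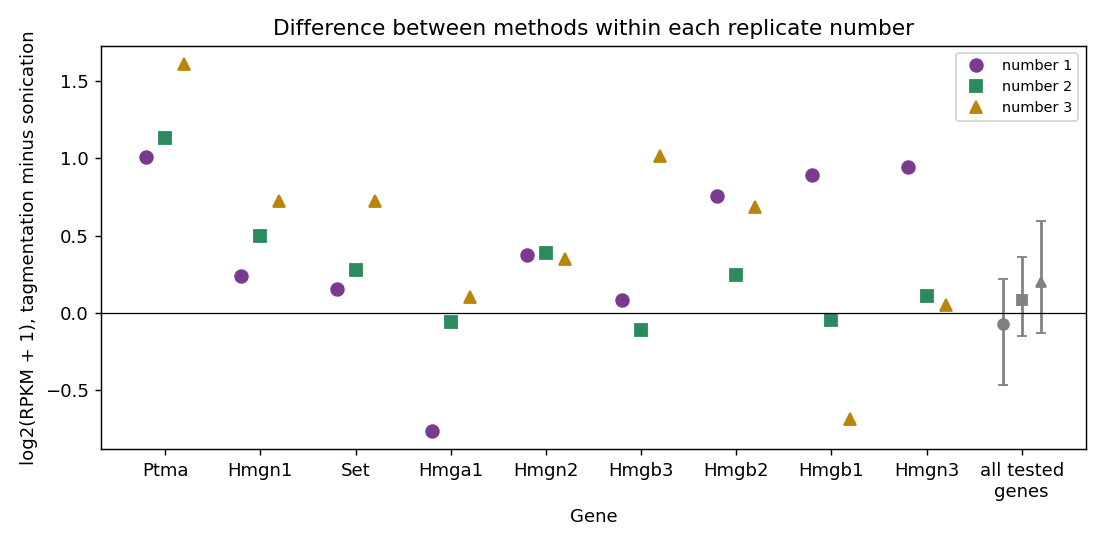
Difference of log2(RPKM + 1), tagmentation minus sonication, within replicate numbers 1, 2 and 3 for the 9 genes; grey symbols give the median and bars the quartiles over the 6327 genes tested. Ptma lies at 1.01, 1.13 and 1.61, Hmgn2 at 0.37, 0.38 and 0.35, and Hmgb1 spreads from 0.89 to -0.69.

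Of the 7 tested genes other than Ptma, limma called 0 at an adjusted p under 0.05, and 0 had an unadjusted p under 0.05. Over all genes tested it called 0 (0%), with 18 at an unadjusted p under 0.05. That fit left the replicate number out. Same-numbered libraries moved together, and with the number as a block 3.29% of genes were called, against 0 when a GC correction was added to the block. None of the 7 was among them, again with 0 at an unadjusted p under 0.05, at adjusted p = 0.303 for Hmgb2 and adjusted p = 0.430 to 0.954 for the others. Ptma, Set, Hmgn1, Hmgn2 and Hmgb2 were higher after tagmentation in 3 of 3 numbers, which is 5 of 8 genes tested, or 4 of 7 without Ptma. This was so in 19.6% of all genes tested. Medians over all genes tested were -0.072, 0.079 and 0.20 in numbers 1 to 3, and the median over the 7 genes, of the mean difference, was 0.37 against 0.028 over all genes tested. The genes were named with earlier results known, so these counts are descriptions.

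Levels were also compared between replicate numbers. Averaged over both methods, the log2(RPKM + 1) of Ptma was 9.78, 9.75 and 9.69 in numbers 1 to 3, a range of 0.098, or 1.07-fold on this scale. Within methods it varied more, and in opposite ways: number 3 was its highest tagmentation library, at 1438 RPKM, and its lowest sonication library, at 470 RPKM. The median range over all genes tested was 2.38. The other ranges ran from 0.73 for Set to 2.72 for Hmgb3. In limma's F-test of the number, with the method as a term, 6 of the 7 tested genes other than Ptma were called. Of all genes tested 88.1% were called, so the count does not set these genes apart. Of the tested genes, Hmgb3 (6.60-fold between its highest and lowest number on the log2(RPKM + 1) scale, adjusted p = 4.61e-12) and Hmgb1 (3.58-fold, adjusted p = 1.83e-06) ranged most, and Hmgn3, which was not tested, ranged by 5.91-fold. Hmgb2, Hmga1, Hmgn1 and Hmgn2 ranged by 2.24-fold to 2.68-fold (adjusted p = 3.00e-04 to 0.00156). Set (1.66-fold, adjusted p = 0.134) did not pass. Ptma had been seen to stand apart between methods, which goes with a small spread within them, so its small range is a description only. Each number has 1 library of each method, so the error of the F-test comes from method differences within numbers. limma largely pools that error over genes. In the blocked fit the SE was 0.28 for Hmgb1 and 0.29 for Hmgn2, whose method differences by number ran from 0.89 to -0.69 and from 0.35 to 0.38. These p-values therefore rest little on each gene's own method differences. Without tagmentation replicate 2 or without sonication replicate 2, only Hmgb1 and Hmgb3 were called, when 68.6% and 70.6% of all genes tested were.

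**Figure D3:**
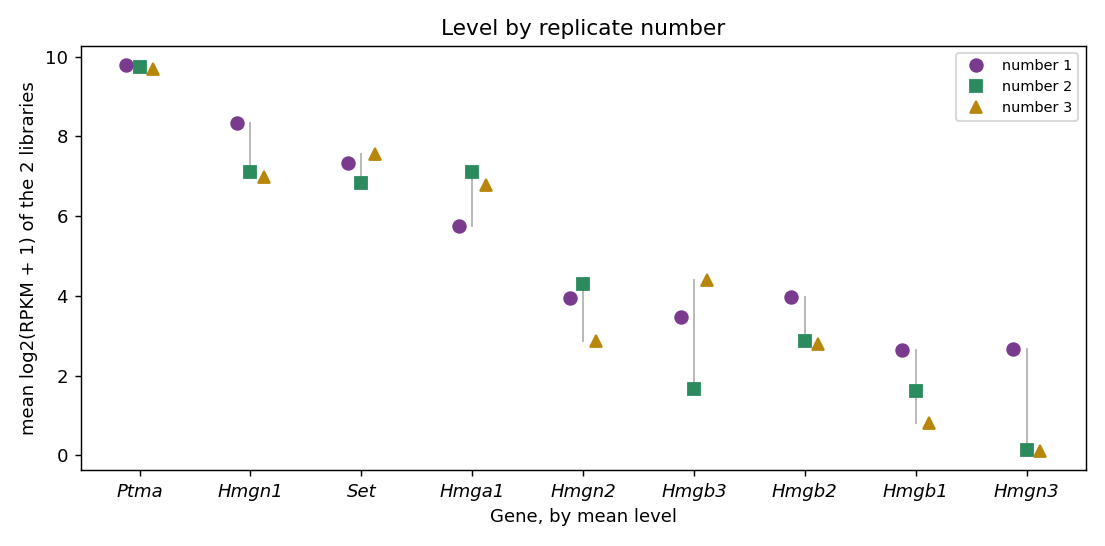
Mean log2(RPKM + 1) of the tagmentation and the sonication library of each replicate number for the 9 genes, ordered by mean level; grey lines span the lowest to the highest number. Ptma stays within 9.69 to 9.78, while Hmgb3 runs from 1.67 in number 2 to 4.39 in number 3.

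The genes did not follow the numbers in 1 direction. By the mean of both libraries, Hmgb1, Hmgb2, Hmgn1 and Hmgn3 were highest in number 1, Hmga1 and Hmgn2 in number 2, and Hmgb3 and Set in number 3. Same-numbered libraries moved together, so the 6 libraries are not independent points. Over them, Pearson's r of log2(RPKM + 1) was 0.96 for Hmgb2 and Hmgn1 and 0.91 for Hmgb3 and Set. It was -0.90 for Hmgb2 and Hmga1 and -0.79 for Hmgb3 and Hmgn2. For Ptma it was at most 0.53, with Set.

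Values of genes with near-identical copies are uncertain, because how reads that match several genes were assigned is not given in the sources used here. Hmgb1 had the most copies among the genes described. In GENCODE M21, 144 other genes matched its longest transcript over at least 150 bases at 85% identity or more, and 141 were pseudogenes. Of these 144 genes, 3 were rows of the table. Hmg1l1, the RefSeq pseudogene Hmgb1-ps7, was 98.6% identical to Hmgb1 over 648 bases. It had 16.4, 3.99 and 0.293 RPKM in tagmentation libraries 1 to 3, against 8.84, 4.65 and 1.78 RPKM in sonication libraries 1 to 3. These values follow the order of Hmgb1 over the libraries, and exceeded it in every library but tagmentation library 3, where it had 13 reads. Hmgb1-rs17, at 91.4% identity over 891 bases, was below 2 RPKM in all libraries, and so was Gm5176. Hmgb2, Hmgb3, Hmgn1 and Hmgn2 matched 13, 17, 11 and 28 other genes, and Hmgn3 matched none. Among these matches, Tmx3 for Hmgb2 (90.7% identical over 929 bases of a retained-intron transcript) was a row of the table. So was the pseudogene Gm6985 for Hmgn2 (92.9% over 183 bases). Gm6985 had 1.23, 3.42 and 1.82 RPKM in tagmentation libraries 1 to 3, against 2.20, 2.19 and 1.57 RPKM in sonication libraries 1 to 3. Reads of Hmgb1 and its copies could be split between rows, so its values are uncertain, and their share was not tested.

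**Figure D4:**
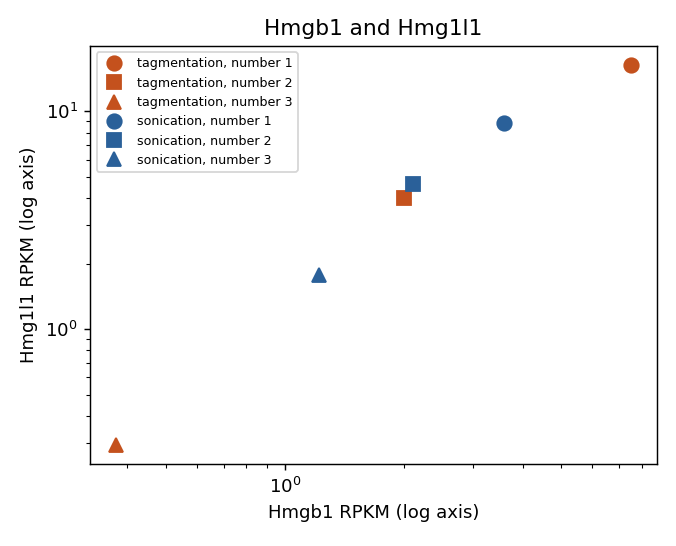
RPKM of Hmg1l1 against Hmgb1, both on log axes, in 3 tagmentation libraries (orange) and 3 sonication libraries (blue), with symbols for the replicate number. The copy runs with its gene, at a ratio of 0.781 to 2.46.

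Genes that work beside these proteins were read from the same fit, and none was called in either direction, with or without the block. Among 24 tested acidic histone chaperones and related proteins, 13 had a log2 difference above 0, with a median of 0.055. Of all genes tested 52.7% were above 0, with a median of 0.028. None had an unadjusted p under 0.05 in limma's test without the block, and 6 had with it, as had 16.8% of all genes tested with the block. Npm1, the nucleolar histone chaperone nucleophosmin, had 741 ± 226 RPKM after tagmentation and 445 ± 215 RPKM after sonication (SD, n = 3 each; log2 difference 0.80, SE 0.42). Anp32b, an acidic chaperone, had 193 ± 16.3 RPKM after tagmentation and 162 ± 47.7 RPKM after sonication. Nap1l1, a nucleosome assembly protein, had 162 ± 110 RPKM after tagmentation and 113 ± 87.3 RPKM after sonication. Among 15 tested other genes with HMG motifs and their partners, 7 had a log2 difference above 0, at a median of -0.024. An unadjusted p under 0.05 was found for 0 of them without the block and for 3 with it, near the 16.8% of all genes. The list includes Tcf7l1, a repressor of the Wnt pathway, and Ssrp1, a subunit of the FACT chaperone. Tcf7l1 had 57.7 ± 28.3 RPKM after tagmentation and 101 ± 61.3 RPKM after sonication, and Ssrp1 had 47.4 ± 19.4 RPKM after tagmentation and 49.0 ± 21.2 RPKM after sonication.

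Of 7 tested partners of Set, 4 had a log2 difference above 0, at a median of 0.22. An unadjusted p under 0.05 was found for 0 without the block and for 2 with it, beside 16.8% of all genes tested. Nme1, a nucleoside diphosphate kinase, had 201 ± 79.97 RPKM after tagmentation and 224 ± 154 RPKM after sonication. The phosphatase 2A scaffold Ppp2r1a had 102 ± 57.4 RPKM after tagmentation and 103 ± 35.2 RPKM after sonication. The catalytic subunit Ppp2ca had 99.3 ± 82.0 RPKM after tagmentation and 66.9 ± 63.0 RPKM after sonication. Of the linker histones with polyadenylated transcripts, H1fx was tested (log2 difference -0.76, SE 1.33), with 4.66 ± 3.36 RPKM after tagmentation and 10.1 ± 8.08 RPKM after sonication. It was not called, with an unadjusted p under 0.05 with the block only. H1f0 was below 1 RPKM in 5 libraries, with 1.05 RPKM in sonication library 2, and was not tested.

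The genes most like Ptma over the 6 libraries, among 3908 others with a mean of at least 10 RPKM, were Tlk1, Hnrnpf, Sltm, Gm10012 and B2m, with Pearson's r of 0.99, 0.98, 0.98, 0.97 and 0.97. Tlk1 had 26.1, 23.2 and 28.4 RPKM in tagmentation libraries 1 to 3, against 13.6, 12.04 and 9.83 RPKM in sonication libraries 1 to 3. It was picked for following Ptma over these same libraries, so the direction it shares with Ptma follows from that choice. The 1 gene most like each of 7 other members was Dnaja2 for Hmgb1 (r 0.98), Selk for Hmgb2 (0.99), BC005537 for Hmgb3 (1.00), Hn1l for Hmgn1 (1.00), Cpsf6 for Hmgn2 (1.00), Hnrnpd for Hmgn3 (0.99) and Mettl9 for Set (1.00). Of the 3908 genes, 13, 8 and 11 had r over 0.99 with Hmgb3, Hmgn1 and Hmgn2, 3 with Set, 2 with Hmgn3, 1 with Ptma, and 0 with Hmgb1 and Hmgb2. The 6 libraries fall into 3 pairs by number, so these values rest on few independent points.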

How the data were processed

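RPKM values of 6 libraries were made by the authors and deposited in 1 table with each library's number of alignments, per the file headers. The submitters' processing notes name CASAVA 1.7.0, Partek and the genome build mm9, with no roles. Aligner settings, gene models and the handling of multiply matching reads: not given in the sources used here. Tagmentation used 100 ng of cDNA at 55 °C for 5 min, then 13 PCR cycles, per the labels. Libraries were grouped and numbered by their titles.

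Values were tested as log2(RPKM + 1), for genes at 1 RPKM or more in at least 3 libraries, with limma 3.58.1 in R 4.3.3 (eBayes with a trend, two-sided, Benjamini-Hochberg over 6327 genes, threshold 0.05). Folds on this scale understate changes of low genes. The labels call the replicates technical, so the p-values cover library-to-library spread and no variation between cultures. Both methods carry numbers 1 to 3, and same-numbered libraries deviated together from their group means (Pearson's r 0.952, 0.969 and 0.934 across genes). The main fit left the number out, so the SE and adjusted p given for each gene ignore this pairing unless the block is named. The SE was 1.10 without the block and 0.29 with it for Hmgb2, and 1.00 and 0.29 for Hmgn2. The blocked fit is given where it bears on a count. The labels do not say that equal numbers share a cDNA. A p that misses the threshold in these fits does not show equal levels. The 9 genes, the lists and the tests were chosen with earlier results of these data known. Named are all 9 genes, the 3 highest genes of each list and any called, the genes most alike by Pearson's r, and rows of near-copies. One item that these rules select is not reported here.

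Reads were recovered by finding the shortest length from 150 to 4000 bases at which all 6 values gave whole reads, within 0.01 reads plus 6e-06 of the reads. Copies were found with blastn 2.17.0 (GENCODE M21 transcripts, same strand), and coding sequences of the principal transcripts were aligned with mafft 7.526. GENCODE M21 is on GRCm38, not mm9, so its coordinates were not used. The search for copies by sequence was added after the values were seen. Alternatives were 2 pseudocounts, 2 filters, 2 scalings, a fit with no trend, each library left out, the replicate block, and the block with a GC correction (lowess of each library's deviations on transcript GC).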

Additional observations from a re-analysis of the deposited data

How the results depend on the processing

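No call on the method contrast changed under another pseudocount, filter, scaling or trend setting, or without any 1 library, for the tested genes or the lists, and the count over all genes stayed at 0 there. All these reruns left the number out, so the spread between numbers stayed in their error. A fit that called 0 genes throughout cannot show that the levels are equal. With the replicate block 208 genes were called over all genes, against 0 with the block and a GC correction, and 1051, 10 and 19 with the block and without number 1, 2 and 3 of both methods. The block changed no call on the 9 genes or the lists by itself. Without number 1 it called 1 of the 7 tested genes other than Ptma, Hmgn1 (log2 difference 0.61, adjusted p = 0.0416 in limma). In that rerun it also called 12 list genes, from lists with 24, 15, 7 and 1 tested genes. Of all 6327 genes tested 1051 were called there, so the call of Hmgn1 does not set it apart. The cause of these calls was not tested. The log2 difference of Ptma was 1.07 to 1.37 over all 18 alternatives, with 1.07 with the block and without number 3. Those of Hmgb2, Hmgn1 and Set also stayed above 0. Over the left-out libraries or numbers Hmgb1 ranged from -0.64 to 0.68, Hmgb3 from -0.45 to 1.19, Hmga1 from -0.57 to 0.29 and Hmgn2 from -0.043 to 0.79. Hmgb1 turned to -0.17 with a pseudocount of 0.1, to -0.64 without tagmentation replicate 1, to -0.21 without sonication replicate 3 and to -0.37 with the block and without number 1. Hmgb3 turned to -0.45 without tagmentation replicate 3, to -0.31 without sonication replicate 2 and to -0.016 with the block and without number 3. Hmga1 turned to 0.29 without tagmentation replicate 1, to 0.021 with the block and without number 1 and to 0.040 with the block and a GC correction, and Hmgn2 to -0.043 without sonication replicate 3. Between replicate numbers, 2 to 7 of the 7 tested genes other than Ptma were called without each library in turn. Of all genes tested, 68.6% to 92.7% were called in these reruns. Low levels limit the reading of Hmgb1 and Hmgn3 most.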
